A study of Homo sapiens with 18 samples.

Results

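The TALE homeobox genes followed here were the 9 genes MEIS1, MEIS2, MEIS3, PBX2, PBX3, PBX4, PKNOX1, PKNOX2 and TGIF1, chosen by gene symbol out of the 54425 genes in a table of ATAC-seq read counts. All 9 passed the filter on low counts that left 17660 genes for testing. ATAC-seq counts reads from DNA that a transposase could reach, so a value is a measure of reachable DNA at a gene, which depends on open chromatin and on the number of DNA copies, and not of its RNA or protein. HEK293T cells, a line derived from human embryonic kidney, gave 18 libraries in 6 groups of 3, and the table was collected to ask how the fusion proteins of the t(4;11) translocation change chromatin over time.

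MLL-AF4 and AF4-MLL are the reciprocal fusions that arise when the KMT2A (MLL) and AFF1 (AF4) genes are broken and exchanged. MLL-AF4 cells carried an inducible MLL-AF4 construct, and AF4-MLL cells an inducible AF4-MLL construct. Co-expression cells expressed MLL-AF4 all the time and carried inducible AF4-MLL, which, by the study's account of this cell model, was brought in by transient transfection on a plasmid without lasting selection. Inducible constructs were switched on with 1 µg/ml doxycycline over 48 h, and cells were taken on day 3 and again on day 28, long after the drug was gone. All groups came from the same line and Sleeping Beauty transposon vectors, the cells are populations of a kidney line and not blood cells, and no mock cells are among the 18 libraries, so constructs are compared with each other and days with each other.

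TALE proteins are homeodomain factors with an extra loop of 3 amino acids in the homeodomain. PBX proteins bind DNA together with HOX proteins, and MEIS and PKNOX (PREP) proteins bind PBX and strengthen those complexes. TGIF proteins are the repressors of the family and act with SMAD factors and corepressors. MEIS1 and PBX3 are well known from leukaemias with MLL fusions, where they work with HOXA9.

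Total counts ranged from 442159 to 3539937 per library with a median of 1254820, and the median count among tested genes was 21. The 37 mitochondrial genes took 32.7% to 45.6% of the counts on day 3 and 63.6% to 68.5% on day 28, and TMM scaling (which sets library sizes so that most genes do not differ) was used before values were given as CPM (counts scaled to equal library sizes). All 12 kidney-line markers followed here had counts (11 were tested), with a summed level of 258 to 349 CPM. The 8 blood markers summed to 60.4 to 86.6 CPM and the 4 liver and muscle markers to 28.9 to 51.5 CPM. No marker of these lists was at 0 in all libraries. Mean counts of single genes ran from 6.56 to 97.9 for the kidney-line list and from 2.33 to 26 for the blood list. For the liver and muscle list they ran from 3.33 to 34.9. The lists differ in length and their genes overlap in level, so these sums do not tell cell types apart. The only marker called in any contrast was PTPRC, a blood marker, at -1.22 ± 0.29 (log2, SE, edgeR adjusted p = 0.00627) for co-expression against AF4-MLL cells on day 28. Its part in other results was not tested. KMT2A, whose 3′ part is in the AF4-MLL construct, was higher in AF4-MLL than in MLL-AF4 cells by 1.39 ± 0.17 (log2, SE, n = 3 per group, edgeR adjusted p = 1.71e-10) on day 3 and by 1.06 ± 0.13 (adjusted p = 7.54e-10) on day 28. In co-expression cells KMT2A was above MLL-AF4 cells by 0.56 ± 0.19 (adjusted p = 0.0876) on day 3 and by 0.62 ± 0.15 (adjusted p = 0.00723) on day 28, and day 28 was above day 3 by 0.39 ± 0.14 (adjusted p = 0.234). All 3 libraries were higher in each of these comparisons, so the KMT2A counts of co-expression cells were not lower on day 28. Against AF4-MLL cells, KMT2A in co-expression cells was at -0.83 ± 0.14 (adjusted p = 9.06e-06) on day 3 and -0.45 ± 0.12 (adjusted p = 0.0295) on day 28. MLL-AF4 constructs hold the 5′ part of KMT2A, so all settings carried some construct sequence of this gene. AFF1 did not pass the test in any of the 12 contrasts.

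The 2 TALE genes with the smallest p-values, PKNOX2 and MEIS2, and PBX2, which had the largest difference between the single constructs on day 3, are shown first with the DNA just upstream of their starts where it is known. PKNOX2 (ENSG00000165495) lies on chromosome 11 at 125164751 to 125433389 (RefSeq, GRCh38.p14), and no promoter sequence is printed for it. MEIS2 (ENSG00000134138) lies on chromosome 15 at 36889204 to 37101311 and PBX2 (ENSG00000204304) on chromosome 6 at 32184733 to 32190202. RefSeq promoter windows were found for 8 of the 9 genes, 16 windows in all, and were limited to the 250 bases before the start. They were searched on both strands for TGACAG, the site of MEIS and PKNOX proteins, and for TGATNNAT, a composite site of PBX with HOX (N is any base), 2 motifs that share their first 3 letters. Capitals mark a motif, and each window reads 5′ to 3′ on the strand of its gene.
MEIS2 first window, chr15:37098697-37098946, minus strand: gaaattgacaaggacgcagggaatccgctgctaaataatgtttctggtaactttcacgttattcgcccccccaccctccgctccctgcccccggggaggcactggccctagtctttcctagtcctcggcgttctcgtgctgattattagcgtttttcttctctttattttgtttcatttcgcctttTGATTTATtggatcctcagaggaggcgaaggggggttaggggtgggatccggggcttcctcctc
MEIS2 second window, chr15:37099107-37099356, minus strand: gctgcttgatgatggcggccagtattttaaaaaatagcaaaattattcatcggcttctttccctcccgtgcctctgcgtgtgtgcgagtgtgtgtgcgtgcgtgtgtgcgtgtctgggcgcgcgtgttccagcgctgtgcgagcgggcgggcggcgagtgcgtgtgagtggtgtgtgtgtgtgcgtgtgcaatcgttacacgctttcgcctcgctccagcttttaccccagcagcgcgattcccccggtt
PBX2, chr6:32190203-32190452, minus strand: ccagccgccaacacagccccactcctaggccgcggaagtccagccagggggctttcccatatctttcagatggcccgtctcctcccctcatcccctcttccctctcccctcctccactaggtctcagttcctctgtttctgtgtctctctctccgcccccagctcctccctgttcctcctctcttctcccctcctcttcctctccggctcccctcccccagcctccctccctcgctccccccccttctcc

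Both MEIS2 windows lie before starts within the span of the gene given above. The first MEIS2 window held 1 TGATNNAT match, written TGATTTAT, and the second MEIS2 window and the PBX2 window held neither motif. Among all 35116 windows of the same length, 13.03% held TGACAG and 6.47% held TGATNNAT. A match is a description of these letters and not a binding site. The MEIS2 windows had 52.4% and 58.8% G and C, and that of PBX2 64.8%.

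PKNOX2, a TALE factor that binds PBX, was the only TALE gene that passed the test at an adjusted p under 0.05 in any contrast. In MLL-AF4 cells it fell 2.29-fold from day 3 to day 28. In AF4-MLL cells its mean was higher on day 28, a difference that did not pass the test, and the change over time differed between these settings by 1.84 on the log2 scale. In MLL-AF4 cells on day 3 the 3 libraries had 15.6, 26.6 and 22.0 CPM. On day 28 the MLL-AF4 libraries had 5.77, 10.6 and 10.7 CPM. All 3 day 28 libraries were below all 3 day 3 libraries, on raw counts of 7 to 19 against 14 to 21. The log2 difference was -1.20 ± 0.31 (SE, 95% interval -1.81 to -0.58) with an edgeR adjusted p of 0.0138. In bulk cells, fewer cells with open chromatin at a gene and less open chromatin in each cell cannot be told apart.

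AF4-MLL cells had 9.86, 20.2 and 10.8 CPM of PKNOX2 on day 3 and 22.1, 17.7 and 17.4 CPM on day 28. These groups overlapped through the second day 3 library, and the log2 difference was 0.64 ± 0.27 (edgeR adjusted p = 0.395). Co-expression cells had 16.0, 14.2 and 11.6 CPM on day 3 and 12.7, 13.1 and 22.6 CPM on day 28, a log2 difference of 0.07 ± 0.27. The level of PKNOX2 in co-expression cells thus had no difference over time larger than the spread, with a 95% interval of -0.47 to 0.61. Tested directly, the change over time in AF4-MLL cells minus that in MLL-AF4 cells was 1.84 ± 0.41 (95% interval 1.02 to 2.66, edgeR adjusted p = 0.0153). The change in co-expression cells minus that in MLL-AF4 cells was 1.26 ± 0.42 (edgeR adjusted p = 0.202), and the change in co-expression cells minus that in AF4-MLL cells was -0.58 ± 0.39 (edgeR adjusted p = 0.955).

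From high to low, the mean PKNOX2 level was 21.4 ± 5.53 CPM (SD, n = 3) in MLL-AF4 cells on day 3, 19.1 ± 2.65 in AF4-MLL cells on day 28, 16.1 ± 5.61 in co-expression cells on day 28, 13.9 ± 2.20 in co-expression cells on day 3, 13.6 ± 5.75 in AF4-MLL cells on day 3 and 9.04 ± 2.83 in MLL-AF4 cells on day 28. Each group lay within the spread of its neighbour in this order, and the MLL-AF4 groups stood at both ends of it. On day 28 all 3 AF4-MLL libraries were above all 3 MLL-AF4 libraries, with a log2 difference of 1.04 ± 0.28 (edgeR adjusted p = 0.159), which did not pass the test. On day 28 all 3 co-expression libraries were above those of MLL-AF4 cells as well, by 0.66 ± 0.30 (adjusted p = 0.347). On day 3 the order was the opposite, with AF4-MLL cells at -0.80 ± 0.30 (adjusted p = 0.344) and co-expression cells at -0.60 ± 0.29 (adjusted p = 0.297) against MLL-AF4 cells. These comparisons share the MLL-AF4 libraries.

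Both PKNOX2 calls depended on single libraries, and the call of the fall in MLL-AF4 cells also on the filter. With no filter on low counts the fall in MLL-AF4 cells was -1.14 with an edgeR adjusted p of 0.0582. Outside library-size scaling its log2 difference stayed between -1.39 and -0.99 under the alternatives. The fall in MLL-AF4 cells was -1.02 (edgeR adjusted p = 0.134) without the second day 3 library, -1.17 (0.0604) without the third day 3 library and -0.99 (0.103) without the first day 28 library. The difference from AF4-MLL cells was 1.66 (adjusted p = 0.0858) without the second and 1.63 (0.0668) without the first of those day 3 and day 28 libraries, and 1.62 (0.105) and 1.76 (0.0580) without the first and the third AF4-MLL library of day 3. DESeq2 gave no adjusted p for PKNOX2 in either contrast, with unadjusted p of 0.00110 and 0.000264. PKNOX2-AS1, an antisense RNA gene that overlaps PKNOX2, had 0 to 12 counts and was not tested, and without strand its reads and those of PKNOX2 cannot be told apart. In MLL-AF4 cells PKNOX2-AS1 had 4, 0 and 5 counts on day 3 and 4, 5 and 3 on day 28.

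PKNOX2 lies 6.64 megabases and 56 tested genes from KMT2A on the same chromosome. Its 50 nearest tested neighbours, 25 on each side, had a median log2 difference of -0.18 between the days in MLL-AF4 cells, and 0 of the 50 were as far from zero in its direction. The median over all other tested genes of chromosome 11 was -0.06. Between AF4-MLL and MLL-AF4 cells on day 28 the neighbours had a median of 0.01, and 0 of 50 were higher than PKNOX2. PKNOX2 was described here because its p was small in these contrasts, which share the MLL-AF4 libraries of day 28, so these counts are a description. In co-expression against MLL-AF4 cells on day 3 and against AF4-MLL cells on day 28, 7 of the 50 neighbours were further from zero than PKNOX2 in its direction.

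**Figure D1:**
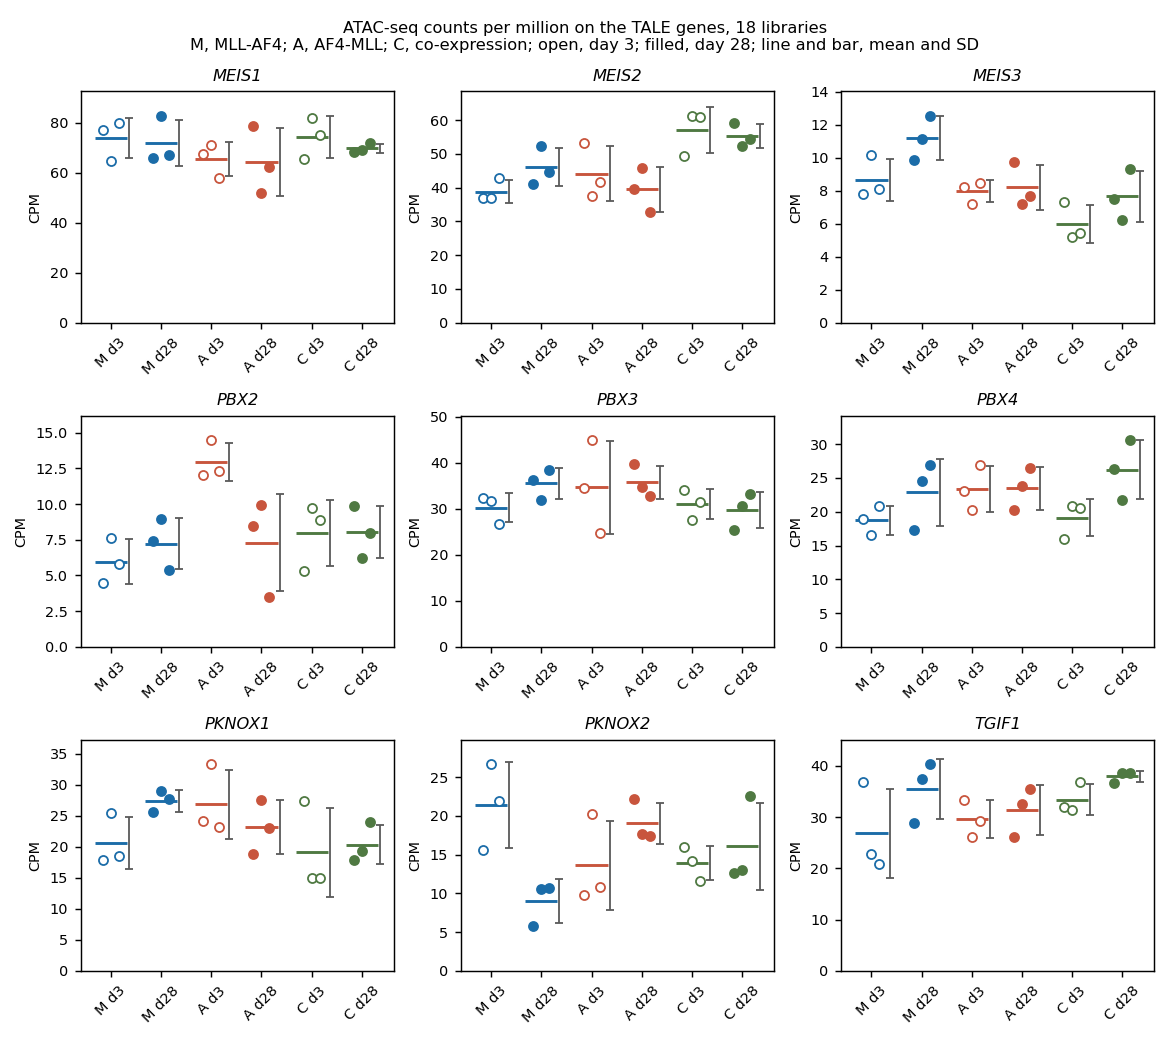
CPM (vertical axis, linear, from 0) of the 9 TALE genes in each library, by group (horizontal axis). Points are single libraries, the horizontal line is the mean and the bar beside it the SD of 3 libraries. In MLL-AF4 cells PKNOX2 has 15.6 to 26.6 CPM on day 3 and 5.77 to 10.7 CPM on day 28, and MEIS2 is highest in co-expression cells on both days.

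The plot of the members by library shows how narrow the ranges were for MEIS1 and how wide for the low genes. No single group held the highest or the lowest mean level for all 9 genes.

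MEIS2, a partner of PBX and HOX proteins with known roles in limb, heart and brain development, was highest in co-expression cells on both days. On day 3 the co-expression libraries had 49.3, 61.2 and 60.8 CPM, against 36.8, 36.8 and 42.8 CPM in MLL-AF4 cells. AF4-MLL cells had 53.2, 37.6 and 41.6 CPM on that day. All 3 co-expression libraries were above all 3 MLL-AF4 libraries, and the groups of co-expression and AF4-MLL cells overlapped through the first AF4-MLL library. On day 28 MEIS2 had 59.2, 52.3 and 54.5 CPM in co-expression cells, 39.7, 45.9 and 32.8 CPM in AF4-MLL cells and 41.2, 52.4 and 44.8 CPM in MLL-AF4 cells. The co-expression libraries of day 28 were all above those of AF4-MLL cells and overlapped narrowly with those of MLL-AF4 cells.

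None of the MEIS2 differences passed the test at an adjusted p under 0.05. Co-expression against MLL-AF4 cells gave 0.55 ± 0.18 on the log2 scale on day 3 (95% interval 0.20 to 0.90, edgeR adjusted p = 0.0786) and 0.25 ± 0.15 on day 28 (adjusted p = 0.536). Co-expression against AF4-MLL cells gave 0.30 ± 0.15 on day 3 (adjusted p = 0.405) and 0.48 ± 0.15 on day 28 (95% interval 0.19 to 0.78, adjusted p = 0.0655). The day 3 difference from MLL-AF4 cells was 0.66 with an adjusted p of 0.0454 when the first co-expression library was left out, and 0.68 with an adjusted p of 0.0391 when no filter on low counts was used. DESeq2 gave adjusted p of 0.269 and 0.333 for the day 3 and day 28 differences. Over time MEIS2 differed by -0.21 in AF4-MLL, 0.27 in MLL-AF4 and -0.03 in co-expression cells, and none of these passed the test.

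The genes around MEIS2 moved with it. Of its 50 nearest tested neighbours on chromosome 15, 47 were higher in co-expression than in MLL-AF4 cells on day 3, with a median log2 difference of 0.76, and 8 of them were called. On day 28, 48 of the 50 were above their AF4-MLL level in co-expression cells, with a median of 0.59, and 10 were called. Over all 530 other tested genes of chromosome 15 the medians were 0.34 and 0.29. MEIS2 was below the median of its neighbours by 0.21 and 0.11 in these contrasts, so its difference was no larger than that of the stretch of chromosome it lies in. The number of copies of chromosome 15 in these cell populations, and what the shift along the chromosome contributed to MEIS2, was not tested.

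MEIS1 (ENSG00000143995, chromosome 2 at 66435125 to 66573869), the MEIS gene best known as a HOXA9 partner in leukaemia, had the smallest ratio of highest to lowest group mean among the 9 genes. Low counts vary more from sampling alone, and MEIS1 had the most counts of the 9, with a mean of 92.8 per library. Its 18 libraries ranged from 51.9 to 82.6 CPM on 49 to 148 counts, and the highest group mean, 74.2 ± 8.40 CPM in co-expression cells on day 3, was 1.15 times the lowest, 64.3 ± 13.6 CPM in AF4-MLL cells on day 28. All 9 comparisons between groups lay from -0.20 to 0.19 on the log2 scale. The widest of their 95% intervals, for AF4-MLL against MLL-AF4 cells on day 3, ran from -0.49 to 0.11. MEIS1-AS2 and MEIS1-AS3 are antisense genes, of which RefSeq places the former within MEIS1, and reads cannot be assigned to a strand.

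MEIS3 (ENSG00000105419, chromosome 19 at 47403124 to 47422233), the third MEIS gene, had only 5 to 20 counts. Its libraries had 7.81, 10.1 and 8.09 CPM in MLL-AF4 cells on day 3 and 9.89, 11.2 and 12.5 CPM on day 28. Co-expression cells had 7.33, 5.22 and 5.46 CPM on day 3 and 7.52, 6.23 and 9.30 CPM on day 28, so the co-expression libraries were below all MLL-AF4 libraries of the same day. The log2 differences were -0.51 ± 0.43 (edgeR adjusted p = 0.637) and -0.59 ± 0.34 (adjusted p = 0.517), within the error that such low counts allow.

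PBX2, a broadly expressed HOX cofactor, had 12.1, 14.5 and 12.3 CPM in AF4-MLL cells on day 3 against 4.46, 7.61 and 5.78 CPM in MLL-AF4 cells, on 10 to 22 and 4 to 6 counts. The 3 AF4-MLL libraries were above those of every other group on either day. On day 28 AF4-MLL cells had 8.47, 9.94 and 3.49 CPM of PBX2 and MLL-AF4 cells 7.42, 8.93 and 5.37 CPM, and the groups overlapped. Co-expression cells had 5.33, 9.69 and 8.88 CPM on day 3 and 9.87, 6.23 and 7.98 CPM on day 28. The day 3 difference of AF4-MLL from MLL-AF4 cells was 1.09 ± 0.42 on the log2 scale (95% interval 0.26 to 1.92, edgeR adjusted p = 0.357), and the change of PBX2 over time in AF4-MLL cells was -0.74 ± 0.34 (adjusted p = 0.452). Co-expression cells were below AF4-MLL cells in all 3 libraries on day 3, with a log2 difference of -0.67 ± 0.34 (adjusted p = 0.409). None of these passed the test after adjustment, and DESeq2 gave no adjusted p for any of them. The median of the 50 neighbours of PBX2 was 0.13 in the day 3 comparison of AF4-MLL with MLL-AF4 cells, and 0 of them were higher than PBX2. PBX2 was described here because its difference was large in that same comparison, so this count is a description.

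PBX3 (ENSG00000167081, chromosome 9 at 125747373 to 125967377), the PBX gene linked to HOXA9 and MEIS1 in leukaemia, had group means of 29.7 ± 3.98 to 35.8 ± 3.57 CPM, which is 1.20 times from lowest to highest. Its 9 differences lay from -0.32 to 0.21 on the log2 scale. The largest, co-expression against AF4-MLL cells on day 28, was -0.32 ± 0.18 (edgeR adjusted p = 0.459), and the median of its 50 neighbours in that contrast was -0.29, with 45 of 50 in the same direction. As with MEIS2, the difference in that contrast was close to that of the genes around it. What the shared shift contributed was not tested. In most other comparisons between settings PBX3 lay further from its neighbours. It had 0.13 beside their 0.37 for AF4-MLL against MLL-AF4 cells on day 3, and 0.03 beside 0.29 on day 28. Co-expression cells gave -0.09 beside -0.30 against AF4-MLL cells on day 3, and -0.29 beside -0.03 against MLL-AF4 cells on day 28. Against MLL-AF4 cells on day 3 they gave 0.04 beside 0.01.

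PBX4 (ENSG00000105717, chromosome 19 at 19561713 to 19618687), a PBX gene with its known expression mainly in testis, went from 16.0, 20.9 and 20.5 CPM on day 3 to 26.3, 21.8 and 30.6 CPM on day 28 in co-expression cells. All day 28 libraries were above those of day 3, with a log2 difference of 0.42 ± 0.22 (edgeR adjusted p = 0.543). The 95% intervals of all 9 PBX4 differences held zero.

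PKNOX1 (ENSG00000160199, chromosome 21 at 42974562 to 43033931), the widely expressed PBX partner also called PREP1, had 25.5, 29.0 and 27.7 CPM in MLL-AF4 cells on day 28. Co-expression cells had 17.9, 19.3 and 23.9 CPM on that day, all below the MLL-AF4 libraries, with a log2 difference of -0.50 ± 0.22 (edgeR adjusted p = 0.310). On day 3 MLL-AF4 cells had 17.9, 25.4 and 18.5 CPM and co-expression cells 27.3, 14.9 and 15.03 CPM, which overlapped. Within MLL-AF4 cells all 3 PKNOX1 libraries of day 28 were above those of day 3, by 0.43 ± 0.25 (adjusted p = 0.393), while PKNOX2 fell. The paralogs thus had opposite signs in this contrast, and only the PKNOX2 difference passed the test.

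TGIF1 (ENSG00000177426, chromosome 18 at 3412009 to 3459978), the repressor of the set, had 36.8, 22.8 and 20.8 CPM in MLL-AF4 cells on day 3 and 28.8, 37.4 and 40.3 CPM on day 28, a log2 difference of 0.40 ± 0.22 (edgeR adjusted p = 0.364) with overlapping groups. In co-expression cells on day 28 it had 36.7, 38.6 and 38.5 CPM, above the 26.05, 32.6 and 35.6 CPM of AF4-MLL cells, by 0.26 ± 0.17 (adjusted p = 0.563). Group means of TGIF1 ran from 26.8 ± 8.72 to 37.9 ± 1.10 CPM.

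Counts of the 9 genes were read against all tested genes in each contrast. The thresholds of the study's selection (unadjusted p under 0.05, log2 beyond 1 in size, mean count over 2) were applied here to edgeR values of the tested genes. Between day 28 and day 3 in MLL-AF4 cells, 1 of 9 TALE genes passed the adjusted test (PKNOX2), against 2.87% of all genes. In the same contrast 1 of 9 had an unadjusted p under 0.05, against 15.8%, and 1 of 9 met the study's selection, against 2.54%. The other 8 of the 9 genes were MEIS1 at -0.02 and 7 genes above zero, and the median of the 9 was 0.29, against 0.00 over all genes. Medians of the gene lists given below ran from -0.05 to 0.37 in this contrast. Beside the median of its neighbours on the chromosome, MEIS3 had 0.37 against 0.24, PBX4 0.29 against 0.24 and MEIS2 0.27 against 0.17. PKNOX1 had 0.43 against 0.18, TGIF1 0.40 against 0.08, PBX2 0.34 against 0.09 and PBX3 0.21 against -0.04. What the shifts of the neighbours contributed was not tested. In AF4-MLL cells 0 of 9 passed the adjusted test between the days, against 0.606%, 2 of 9 (PKNOX2 and PBX2) had an unadjusted p under 0.05, against 9.29%, and 0 met the study's selection, against 1.14%. In co-expression cells the counts were 0 of 9 against 0.606%, 0 of 9 against 9.51% and 0 of 9 against 1.19%. DESeq2 called none (0) of the 9 genes in any of the 12 contrasts, and its unadjusted p was under 0.05 for 0 to 2 of them per contrast. It gave no adjusted p for 2 to 7 of the 9 in 10 of the 12 contrasts, PKNOX2 in MLL-AF4 cells included, and genes without that value could not be called.

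Between settings the adjusted test called 0 of the 9 genes in all 6 comparisons. For co-expression against MLL-AF4 cells on day 3 the share of all genes called was 1.81%, 2 of 9 (MEIS2 and PKNOX2) had an unadjusted p under 0.05, against 14.5%, and 0 met the study's selection, against 2.79%. For co-expression against AF4-MLL cells on day 3 these were 1.28% called, 1 of 9 (MEIS2) against 12.3%, and 0 against 1.79%. For AF4-MLL against MLL-AF4 cells on day 3 they were 0.142% called, 2 of 9 (PBX2 and PKNOX2) against 9.55%, and 1 of 9 (PBX2) against 1.51%. On day 28, co-expression against MLL-AF4 cells had 1.17% of all genes called, 2 of 9 (PKNOX1 and PKNOX2) against 11.8%, and 0 against 1.29%. Co-expression against AF4-MLL cells on day 28 had 1.69% called, 1 of 9 (MEIS2) against 12.7%, and 0 against 1.36%. AF4-MLL against MLL-AF4 cells on day 28 had 0.0793% called, 1 of 9 (PKNOX2) against 8.26%, and 1 of 9 (PKNOX2) against 0.544%.

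For the differences in change over time, 1 of 9 genes (PKNOX2) was called between AF4-MLL and MLL-AF4 cells, against 0.317% of all genes, and 1 of 9 had an unadjusted p under 0.05, against 9.75%. Between co-expression and MLL-AF4 cells 0 of 9 were called, against 0.232%, and 1 of 9 (PKNOX2) had an unadjusted p under 0.05, against 9.73%. Between co-expression and AF4-MLL cells 0 of 9 were called, against 0% of all genes, and 0 of 9 had an unadjusted p under 0.05, against 5.05%. Over the 9 genes the difference in change ran from -1.08 to 1.84 for AF4-MLL against MLL-AF4 cells, with PBX2 lowest and PKNOX2 highest, from -0.42 to 1.26 for co-expression against MLL-AF4 cells, with PKNOX1 lowest and PKNOX2 highest, and from -0.58 to 0.80 for co-expression against AF4-MLL cells, with PKNOX2 lowest and PBX2 highest. With 9 genes a single call is 1 in 9, so these shares are coarse, and each call came from PKNOX2 alone.

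**Figure D2:**
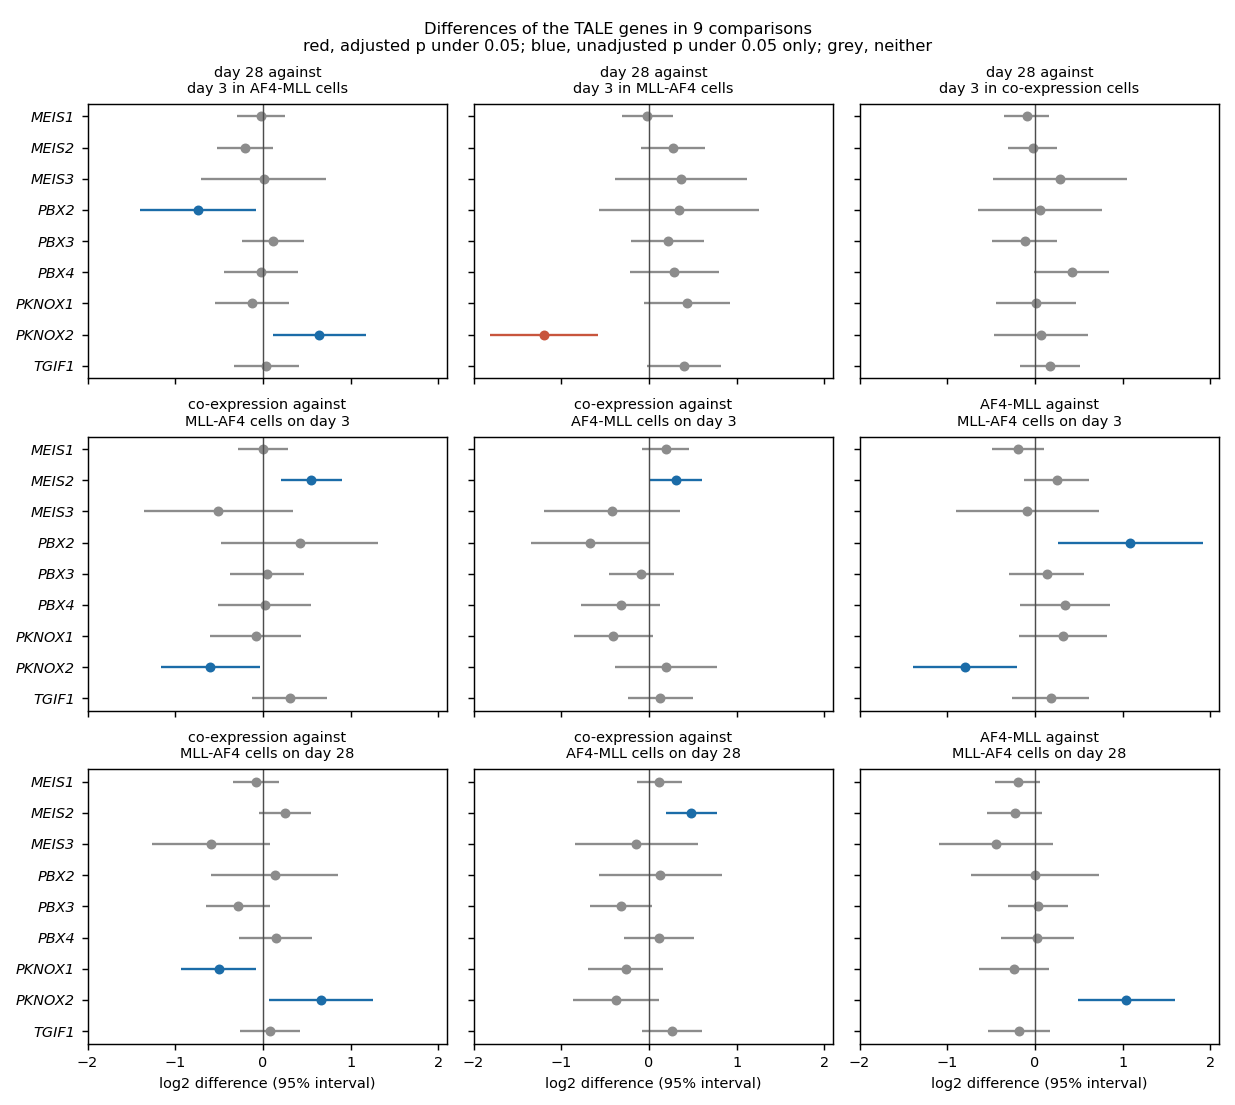
Log2 differences (horizontal axis, points) with 95% intervals (lines) of the 9 TALE genes in the 9 comparisons between groups of 3 libraries. The only red point, an adjusted p under 0.05, is PKNOX2 at -1.20 between the days in MLL-AF4 cells.

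Genes that work with the TALE factors were followed as lists. Of the 9 other TALE genes on the list (the IRX genes, MKX and TGIF2 among them), 6 were tested and 0 were called by edgeR in any of the 12 contrasts, where an unadjusted p under 0.05 was reached 3 times by a higher and 1 time by a lower level (5.05% to 15.8% of all genes per contrast). Of 39 HOX genes of the 4 clusters, 35 were tested, with 10 calls over the 12 contrasts, 5 higher and 5 lower. All of these calls except that of HOXD8 fell on genes of the HOXB cluster, and HOXB5 and HOXB6 were called repeatedly. The calls of HOXB6 share the MLL-AF4 libraries of day 28. HOX genes were not set beside their neighbours on the chromosome. Between the days in MLL-AF4 cells, where PKNOX2 fell, 3 of 35 HOX genes were called, against 2.87% of all genes. HOXB9 rose by 0.90 ± 0.22 (log2, edgeR adjusted p = 0.00640), HOXB6 by 0.71 ± 0.19 (adjusted p = 0.0138) and HOXB3 by 0.61 ± 0.18 (adjusted p = 0.0398) from day 3 to day 28. The median of the 35 HOX genes was 0.20, against 0.00 over all genes. An upward median was not particular to HOX genes, with 0.18 for the other TALE genes and 0.37 for the SMAD circle of TGIF1 given below. The median was -0.05 for the genes downstream of HOXA9 and MEIS1. In the other contrasts with a HOX call, 1 or 2 of the 35 were called, against 0.0793% to 1.69% of all genes. HOXB6 was also lower in AF4-MLL than in MLL-AF4 cells on day 28, with a log2 difference of -0.72 ± 0.16 (adjusted p = 0.0241), and its change over time differed between them by -1.04 ± 0.25 (adjusted p = 0.0251), the opposite sign to PKNOX2 in the same contrast. HOXB5 was lower in co-expression than in MLL-AF4 cells on day 28, with a log2 difference of -1.21 ± 0.23 (adjusted p = 0.000249), and differed from AF4-MLL cells on day 3 by -0.83 ± 0.23 (adjusted p = 0.0377).

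The remaining HOX calls were HOXB8 at 0.70 ± 0.18 (edgeR adjusted p = 0.0194) for co-expression against AF4-MLL cells on day 3, and HOXB13 at 0.75 ± 0.22 (adjusted p = 0.0447) and HOXD8 at -0.57 ± 0.16 (adjusted p = 0.0396) in the same comparison on day 28. Genes known to lie downstream of HOXA9 and MEIS1 (FLT3, MYB, BCL2 and SOX4 among 8 listed) had 7 tested members and 0 edgeR calls, with 3 higher and 7 lower at an unadjusted p under 0.05 over the 12 contrasts, in which 5.05% to 15.8% of all genes reached that p. Of the 8 genes of the SMAD and corepressor circle of TGIF1, SIN3A was called in 1 contrast, co-expression against MLL-AF4 cells on day 3, at 0.57 ± 0.17 (edgeR adjusted p = 0.0495). In that contrast 1.81% of all genes were called. SIN3A, like MEIS2, lies on chromosome 15, where 48 of the 530 tested genes besides MEIS2 were called in it. Over the 12 contrasts the circle reached an unadjusted p under 0.05 6 times by a higher and 4 times by a lower level, with the same shares of all genes.

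For the 6 members averaging 30 counts or more, the tested genes with the most similar pattern over the 18 libraries were PTCD2 (Pearson r = 0.85) and AL606469.1 (0.82) for MEIS1, ZNF260 (0.88) and MSTO1 (0.86) for MEIS2, CCBE1 (0.80) and MID1IP1-AS1 (0.79) for PBX3, NBPF10 (0.82) and MYBPC2 (0.79) for PBX4, EIF4H (0.85) and AC007686.3 (0.85) for PKNOX1, and FKBP10 (0.87) and AC112907.3 (0.85) for TGIF1. These are the highest of 17660 correlations for each gene, and the libraries share their depth and group structure.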

How the data were processed

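ATAC-seq libraries of HEK293T cells (18, in 6 groups of 3) were prepared by the authors with Nextera transposase from fresh nuclei, and reads were deposited as raw counts, whole numbers per gene for 54425 genes. The submitters' processing notes name bcl2fastq, Bowtie2, HTSeq and GRCh38, without versions. The region counted per gene, the handling of duplicate reads and any Tn5 offset are not given in the sources used here. Among genes with a RefSeq span, the median mean count rose from 2.33 in decile 1 by length (median 2.01 kb) and 12.8 in decile 2 to 18.6 in decile 5 and 22.5 in decile 10 (median 262 kb), and since counted lengths are unknown, levels were not compared between genes. Reads are unstranded. All 18 columns were matched to samples by title, and 0 were left over.

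Tests used edgeR 4.0.16 (R 4.3.3) over all 6 groups (12 residual degrees of freedom, quasi-likelihood F test, TMM, filterByExpr with a minimum count of 10 and a minimum total of 15). Genes with a Benjamini-Hochberg adjusted p under 0.05 over all 17660 tested genes were called. The biological coefficient of variation was 7.48%. CPM used TMM-scaled library sizes. The study used DESeq2, and DESeq2 1.42.0 was run as an alternative. The study's selection was applied here to edgeR values, with the lower of the study's log2 limits. The labels number biological replicates without naming separate cultures, so p-values may measure technical spread. Replicate pairs differed by more than sampling noise (chi-square per degree of freedom 1.06 to 1.42), but only slightly in MLL-AF4 cells (1.06 to 1.11). These values do not tell biological from technical spread. The pipeline was tested on simulated data. Members, lists and tests were chosen with earlier results of these data known. All 9 members were followed in each contrast and are given by value, range or plot, and other listed genes are named only where called, at most 3 per contrast (a further gene list is not reported here), and similar genes as the 2 highest correlations of log2 CPM (prior count 2) per member with a mean of at least 30 counts. RefSeq GRCh38.p14 matched 14914 of the tested genes (84.5%) for order and position, with no claim that the counts use the same annotation. Alternatives were other scalings, no filter, DESeq2, only the groups compared, a replicate block, the study's selection, and leaving out each library.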

Additional observations from a re-analysis of the deposited data

Results flagged for a closer look

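The change of PKNOX2 from day 3 to day 28 differed between construct settings. The change in AF4-MLL cells minus that in MLL-AF4 cells was 1.84 ± 0.41 on the log2 scale (edgeR interaction test, adjusted p = 0.0153), from a fall of PKNOX2 in MLL-AF4 cells and values in AF4-MLL cells that were higher on day 28 in mean but overlapped. The libraries behind it held 7 to 34 counts of PKNOX2 each. Leaving out single libraries gave 1.62 to 2.08, with an adjusted p under 0.05 in 8 of 12 cases and up to 0.105 in the others. The cause was not tested.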

How the results depend on the processing

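With library size as the only scaling, the days differed for 8 of 9 genes in AF4-MLL, 4 in MLL-AF4 and 8 in co-expression cells, where the median of all genes itself shifted by -1.06, -0.87 and -1.07 on the log2 scale, and 0 in the interaction of day with AF4-MLL against MLL-AF4. PKNOX2 between days in AF4-MLL cells then had -0.42 in place of 0.64, which is above that shift. Without a filter the count was 0 between days in MLL-AF4 cells and 1 for co-expression against MLL-AF4 cells on day 3. DESeq2 called 0 between days in MLL-AF4 cells and 0 in the interaction, where it gave no adjusted p for PKNOX2. The study's selection took 1 gene for AF4-MLL against MLL-AF4 cells on day 3 and 1 on day 28. Leaving out single libraries gave 0 to 1 genes for the days in MLL-AF4 cells, for co-expression against MLL-AF4 cells on day 3 and for that interaction. DESeq2 size factors changed the sign of 0 of 108 differences, nuclear counts only 1, the loess offset 4 and library size as the only scaling 24. Taken relative to the median of all genes, library size as the only scaling changed 3 and the loess offset 5.

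Replicate numbers did not pair the samples: correlations of same-numbered deviations ran from -0.04 to 0.02, and 0 of 9 comparisons met the rule for pairing. With the replicate number as a block, PKNOX2 gave -1.21 (edgeR adjusted p = 0.0136) in MLL-AF4 cells and 1.83 (0.0199) in the interaction, and the block changed no count of TALE genes. Depth limited the low genes most: the SE of a difference between 2 groups was 0.33 to 0.43 on the log2 scale for MEIS3 and 0.34 to 0.46 for PBX2, against 0.13 to 0.15 for MEIS1.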

Other observations

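Pseudogene copies and antisense neighbours of the TALE genes were listed in the table with few counts. PBX2P1 had 0 to 5 counts per library, MEIS3P1 0 to 4, MEIS3P2 0 to 5 and TGIF1P1 0 to 3, and none of them passed the filter on low counts. PBX2P1 summed to 0 counts over the 3 MLL-AF4 libraries of day 3 and to 9 over those of day 28, and to 6 over the AF4-MLL libraries of day 3, the group in which PBX2 was highest. MEIS1-AS3 was tested and had 1 to 15 counts. How reads shared by a gene and its pseudogene copy were counted is not given in the sources used here.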
